A study of Mus musculus with 4 samples.

Results

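*Tcf21*, *Foxc1*, *Foxc2*, *Foxd2* and *Lmx1b* are 5 genes for DNA-binding transcription factors of the glomerular podocyte. They were followed by gene symbol in RNA-seq libraries of embryonic mouse kidney cells with and without conditional deletion of *Eya1*. They are 5 of the 52636 gene identifiers counted, and all 5 were among the 19041 genes with enough counts to be tested. *Tcf21* was the only member whose level passed the test: it was 1.57-fold higher in *Eya1*cKO (95% interval of the fold change, 1.31 to 1.89). The levels of *Foxc1*, *Foxc2* and *Lmx1b* did not pass the test, nor did that of *Foxd2*, which was lower in both *Eya1*cKO libraries.

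The 4 libraries were made from tdTomato+ cells that had been sorted by flow cytometry (FACS) out of kidneys of about E12.5 to E12.75, 48 h after the first tamoxifen dose. The 2 Control libraries came from *Eya1*CreER;tdTomato embryos and the 2 *Eya1*cKO libraries from *Eya1*CreER;*Eya1*fl/fl;tdTomato embryos, all on a mixed C57BL/6J and 129/Sv background. All embryos thus carried the *Eya1*CreER allele and the reporter and were exposed to tamoxifen, so the reporter marks cells in which *Eya1* drove the recombinase, and their descendants. Each library was prepared from 5000 cells, and the cell suspensions were combined before sorting, so the libraries of a genotype are portions of cells sorted at the same time and the p-values measure the spread between such portions.

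Podocytes are the epithelial cells that wrap the capillaries of the glomerulus and carry the slit diaphragm, the last layer of the blood filter. They arise from nephron progenitors by way of the renal vesicle and the S-shaped body. *Tcf21* encodes a basic helix-loop-helix (bHLH) factor that works as a dimer with the widely expressed E proteins, and it is also known from the stroma around the nephron. *Foxc1* and *Foxc2* encode a closely related pair of forkhead factors that act early in nephron formation as well as in podocytes, vessels and mesoderm. *Foxd2* encodes another forkhead factor of the metanephric mesenchyme. *Lmx1b* encodes a LIM-homeodomain factor, best known because its loss causes nail-patella syndrome, and it works with the cofactor encoded by *Ldb1*.

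*Eya1* itself had 6612 and 6420 counts in Control 1 and 2 and 377 and 219 counts in *Eya1*cKO 1 and 2 (log2 fold change -3.60, SE 0.18, adjusted p = 1.9e-04 in edgeR). The libraries held 35411905 and 37999342 gene counts in Control and 22239293 and 17457452 in *Eya1*cKO. Reads that were aligned but assigned to no annotated feature made up 12.9 to 13.9% of the reads in Control and 20.9 to 22.7% in *Eya1*cKO. In Control 26486 to 27091 genes had a count, against 20538 to 21455 in *Eya1*cKO. These differences move with genotype in every comparison given here, and their part in the results was not tested. The lowest count of any member in any library was 854, for *Foxd2* in *Eya1*cKO 1, so none of the 5 genes was near the limit of detection.

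In the Control cells the 5 genes were already well expressed. Divided by exonic length, *Foxc2* had the highest level, 86.9 CPM per kb (CPM, counts scaled to a library of 1e6 counts), above 97.9% of the genes tested. *Tcf21* stood at 38.1 and *Foxc1* at 37.1 CPM per kb, above 93.5% and 93.3% of the genes. *Foxd2* followed at 21.9 CPM per kb and *Lmx1b* at 11.7, above 86.5% and 74.7% of the genes. *Nphs1*, which encodes the slit diaphragm protein nephrin, was far lower in the same cells, at 3.41 CPM per kb. In *Eya1*cKO it stood at 21.5 CPM per kb. *Podxl*, named after its values were seen, encodes a surface protein of podocytes and of vessel walls and was at 52.5 CPM per kb in Control. The Control libraries thus held much RNA of the 5 factors beside little *Nphs1* RNA, and the 5 genes were not measured in podocytes alone.

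The bases just before the starts of *Tcf21* and *Foxd2* are shown because these are the members with the largest fitted changes, 1 in each direction. The RefSeq table of promoters (GRCm38.p6) held a window for 4 of the 5 genes, and only the bases before the annotated start are given here, 5′ to 3′ on the gene's strand, with every CG dinucleotide (CpG, the site of DNA methylation) in capitals. The *Tcf21* window lies at chr10:22820175-22820393, minus strand, and the *Foxd2* window at chr4:114908899-114909148, minus strand.
Tcf21: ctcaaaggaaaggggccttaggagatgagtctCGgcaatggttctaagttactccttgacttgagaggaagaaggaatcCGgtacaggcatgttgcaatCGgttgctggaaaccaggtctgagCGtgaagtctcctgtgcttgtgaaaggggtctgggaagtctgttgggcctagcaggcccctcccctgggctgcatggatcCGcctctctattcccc
Foxd2: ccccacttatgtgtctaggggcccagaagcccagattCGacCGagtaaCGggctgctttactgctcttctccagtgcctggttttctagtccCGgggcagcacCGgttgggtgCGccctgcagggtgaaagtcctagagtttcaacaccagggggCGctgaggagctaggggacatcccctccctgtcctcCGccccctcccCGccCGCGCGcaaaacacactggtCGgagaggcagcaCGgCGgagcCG
The *Tcf21* window of 219 bases had 5 CpG, or 2.28 per 100 bases, beside a median of 2.40 over the 32817 windows of 250 bases in the table. The *Foxd2* window of 250 bases had 16 CpG, or 6.4 per 100 bases, and that of *Foxc1* had 29 in 237 bases, or 12.2 per 100, more than 94.8% of all windows. Neither of the printed windows held the E-box CANNTG on either strand, whereas 66.2% of all windows held it. Nor did they hold the forkhead core TAAACA, which is in 12.03% of all windows, or a TATA box, TATAAA, which is in 12.4%. The *Foxd2* window held 2 GC boxes (GGGCGG), a motif found in 32.7% of all windows. These are descriptions of the letters in the windows and say nothing of binding.

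*Tcf21* lies on chromosome 10 from 22817281 to 22820174 on the minus strand of mm10, with 2349 bp of exons. It had 3040 and 3438 counts in Control 1 and 2 and 3050 and 2574 counts in *Eya1*cKO 1 and 2. Scaled to library size this was 87.1 and 91.8 CPM in Control and 135 and 147 CPM in *Eya1*cKO. Both *Eya1*cKO libraries thus stood above both Control libraries, and the gap between the groups was larger than the spread within either. The mean rose from 89.4 ± 3.37 to 141 ± 8.31 CPM (SD, n = 2 in each group), a log2 fold change of 0.65 (SE 0.11, 95% interval 0.38 to 0.92, adjusted p = 0.017 in edgeR). The change was of moderate size among all genes, since 4427 of the 19041 genes tested had a more positive log2 fold change. Without Control 1 the log2 fold change was 0.59 with an adjusted p of 0.53 in edgeR, and without Control 2 it was 0.67 with an adjusted p of 0.47. With a Control library left out, 23 genes were called in all, and among the genes named here *Eya1* alone kept its call. The call was kept without *Eya1*cKO 1, where 7414 genes were called in all, and without *Eya1*cKO 2, where 7925 were, beside 1820 with all 4 libraries. Here and below, a fit without 1 *Eya1*cKO library takes its spread from the Control pair alone, which is the tighter pair, and assumes that the lone library varies as little. Over the alternatives that used all 4 libraries, adjusted p ran from 1.0e-04 with DESeq2 to 0.070 in edgeR with the replicate number in the fit (a replicate block). With that block the log2 fold change was 0.65 and the call was lost. Whether more cells with *Tcf21* RNA or more *Tcf21* RNA per cell made up the difference cannot be told apart in bulk libraries, and the same holds for every gene below.

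*Foxc1* lies on chromosome 13 from 31806633 to 31812476 on the plus strand and has a single exon. It had 7708 and 7974 counts in Control and 4662 and 4311 counts in *Eya1*cKO, which corresponds to 221 and 213 CPM and to 206 and 246 CPM. The *Eya1*cKO libraries lay on either side of the Control libraries, so the groups overlapped. The means were 217 ± 5.50 and 226 ± 27.9 CPM (SD, n = 2 each), a log2 fold change of 0.05 (SE 0.11, adjusted p = 0.78 in edgeR). The 95% interval of the log2 fold change, from -0.19 to 0.30, leaves room for a modest change either way but not for a doubling.

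*Foxc2* lies on chromosome 8 from 121116171 to 121118895 on the plus strand and is also a single-exon gene. Its 8194 and 8940 counts in Control and 4695 and 4308 counts in *Eya1*cKO gave 235 and 239 CPM and 208 and 246 CPM. Here too the *Eya1*cKO libraries stood on both sides of the Control pair. The log2 fold change was -0.07 (SE 0.10, 95% interval -0.31 to 0.17, adjusted p = 0.70 in edgeR), with means of 237 ± 2.91 and 227 ± 26.7 CPM (SD, n = 2 each). Without *Eya1*cKO 2 *Foxc2* passed the test at a log2 fold change of -0.20 (adjusted p = 0.032 in edgeR), and without *Eya1*cKO 1 the sign turned to 0.04 (adjusted p = 0.66), with adjusted p from 0.032 to 0.90 over all alternatives. For *Foxc1* the sign turned without *Eya1*cKO 2, to a log2 fold change of -0.09 (adjusted p = 0.36 in edgeR, 0.082 to 0.99 over all alternatives). The *Foxc2* to *Foxc1* ratio of counts was 1.06 and 1.12 in Control and 1.01 and 0.999 in *Eya1*cKO. The pair therefore kept nearly equal counts in all 4 libraries. Of all stretches of 75 bases in the transcripts of the 5 members, 0 occurred in a transcript of another gene, so their reads of that length could be told apart.

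*Foxd2* lies on chromosome 4 from 114906282 to 114908873 on the minus strand and has 1 exon. It had 2007 and 2104 counts in Control and 854 and 902 counts in *Eya1*cKO. In CPM these were 57.5 and 56.2 in Control against 37.8 and 51.4 in *Eya1*cKO. Both *Eya1*cKO libraries were below both Control libraries, but they differed more from each other than *Eya1*cKO 2 differed from Control. The means were 56.8 ± 0.907 and 44.6 ± 9.63 CPM (SD, n = 2 each), a log2 fold change of -0.37 (SE 0.19, 95% interval -0.82 to 0.08, adjusted p = 0.25 in edgeR). The value rested on *Eya1*cKO 1. Without *Eya1*cKO 2 the log2 fold change was -0.60 and passed the test (adjusted p = 0.0040 in edgeR), and without *Eya1*cKO 1 it was -0.16 (adjusted p = 0.43), with adjusted p from 0.0040 to 0.72 over all alternatives.

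*Lmx1b* lies on chromosome 2 from 33560965 to 33640511 on the minus strand, and its 4880 bp of exons are spread over 79547 bp. It had 1921 and 2226 counts in Control and 1436 and 1248 in *Eya1*cKO, or 55.0 and 59.4 CPM against 63.5 and 71.1 CPM. Both *Eya1*cKO libraries were above both Control libraries, with only 4.10 CPM between the nearest libraries of the groups. The means were 57.2 ± 3.14 and 67.3 ± 5.37 CPM (SD, n = 2 each), and the log2 fold change was 0.23 (SE 0.15, 95% interval -0.13 to 0.58, adjusted p = 0.36 in edgeR). It was not called under any alternative.

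**Figure D1:**
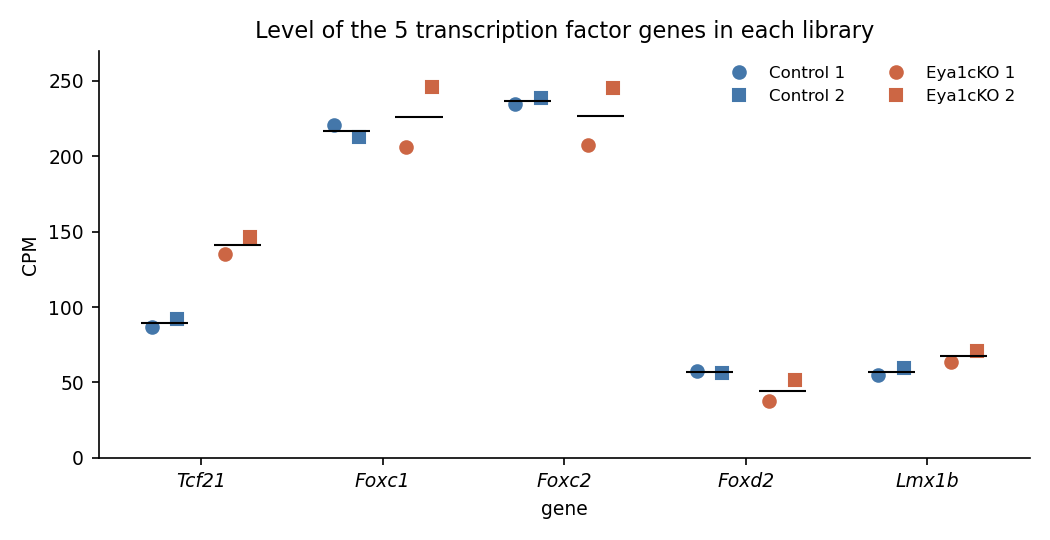
Level of each of the 5 genes in CPM (vertical axis) in the 2 Control libraries (blue) and the 2 Eya1cKO libraries (orange), with circles for library 1, squares for library 2 and a bar at each group mean. Tcf21 is at 135 and 147 CPM in Eya1cKO against 87.1 and 91.8 in Control, while the Foxc1 and Foxc2 libraries of the groups overlap.

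Counted over the set, 1 of the 5 members was called, beside 9.56% of all genes tested (1820 of 19041). In the higher direction the count was also 1 of 5, beside 5.15% of all genes, and in the lower direction it was 0 of 5, beside 4.41%. At an unadjusted p under 0.05 in edgeR 0 members were lower, and with DESeq2 0 members were called lower. In the edgeR fit with a replicate block 0 members were called in either direction, beside 621 genes in all. Both *Eya1*cKO libraries were above both Control libraries for *Tcf21* and *Lmx1b*, 2 of 5 members beside 25.3% of all genes, and below them for *Foxd2*, 1 of 5 beside 30.0%. With 5 genes, these shares do not set the members apart from the background. Members had a median log2 fold change of 0.05, and all genes tested one of 0.02.

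The make-up of the set is given here as values without a test across genes. Shares within a library are tied, so a higher share of any gene lowers those of the others. The summed level of the members was 655 to 659 CPM in Control and 650 to 761 CPM in *Eya1*cKO. As a share of the summed CPM per kb, *Tcf21* made up 19.1% and 19.8% in Control and 29.2% and 27.3% in *Eya1*cKO. *Foxd2* made up 11.4% and 11.004% in Control and 7.42% and 8.66% in *Eya1*cKO, and *Foxc2* 44.3% and 44.5% in Control and 38.8% and 39.3% in *Eya1*cKO. *Foxc1* made up 19.4% and 18.5% in Control and, slightly less, 18.0% and 18.4% in *Eya1*cKO. A ratio of 2 genes within a library does not depend on the scaling, and the ratio of *Tcf21* to *Foxd2* counts was 1.51 and 1.63 in Control and 3.57 and 2.85 in *Eya1*cKO, 2.03-fold higher by geometric means. The ratio of *Tcf21* to *Foxc1* counts was 0.394 and 0.431 in Control and 0.654 and 0.597 in *Eya1*cKO. The *Eya1*cKO libraries were above the Control libraries in both ratios, and an exact two-sided permutation test gave p = 0.333 for each, the smallest p that 2 against 2 libraries allow.

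**Figure D2:**
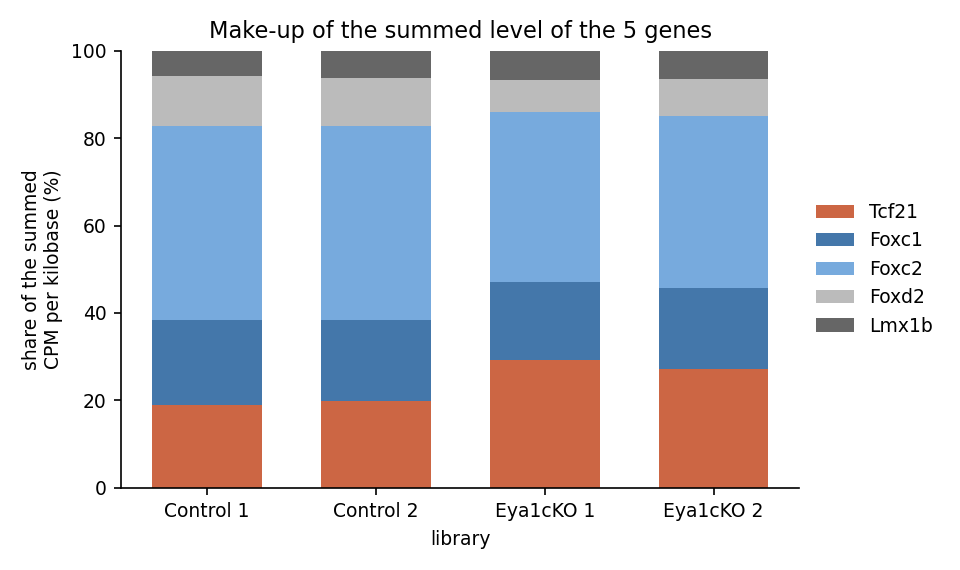
Share of each gene in the summed CPM per kilobase of the 5 genes (vertical axis, percent) in each of the 4 libraries, as stacked bars. The share of Tcf21 is 19.1% and 19.8% in Control and 29.2% and 27.3% in Eya1cKO, and Foxc2 has the largest share in every library.

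The *Eya1*cKO libraries differed from each other more than the Control libraries did. All 5 members were higher in *Eya1*cKO 2 than in *Eya1*cKO 1, by 8.71% for *Tcf21*, 11.9% for *Lmx1b*, 18.2% for *Foxc2*, 19.1% for *Foxc1* and 36.1% for *Foxd2*. A higher ratio than that of *Foxd2* was found in 17.9% of 10407 genes with a mean of at least 10 CPM, and a higher ratio than that of *Tcf21* in 39.9%. The coefficient of variation was 1.23 to 5.48% in Control and 5.90 to 21.6% in *Eya1*cKO, and it was higher in *Eya1*cKO for every member. In *Eya1*cKO 2 the level of *Eya1* was 0.748 times and that of *Six2*, which keeps nephron progenitors undifferentiated, 0.273 times the level in *Eya1*cKO 1. The part of this difference between the libraries in the values of the 3 forkhead members was not tested.

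**Figure D3:**
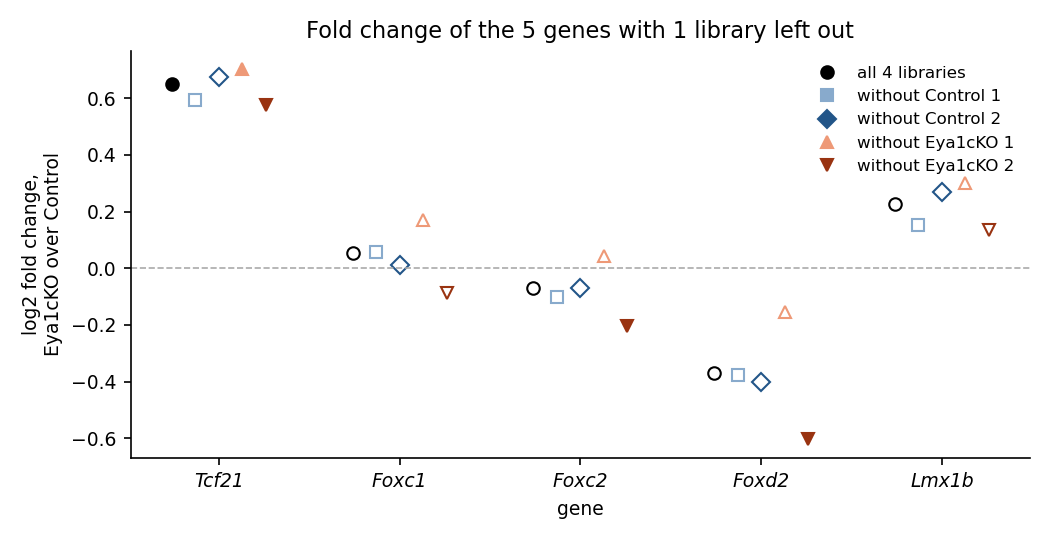
Log2 fold change of Eya1cKO over Control (vertical axis) for each of the 5 genes with all 4 libraries and with each library left out in turn; filled symbols passed an adjusted p of 0.05 in edgeR and open ones did not. Tcf21 stays between 0.58 and 0.70, whereas Foxc1 and Foxc2 cross 0 when an Eya1cKO library is left out.

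Transcripts that start beside the members were read next, since the libraries kept strand but the strand setting of the counting is not given in the sources used here. No exon of another annotated gene overlapped an exon of a member. *Gm10824*, an antisense transcript across *Tcf21*, had 137 and 169 counts in Control and 42 and 2 counts in *Eya1*cKO (log2 fold change -1.94, SE 0.88, adjusted p = 0.19 in edgeR), and it passed the test without *Eya1*cKO 1 (-5.17, adjusted p = 0.0038, 0.0038 to 0.71 over all alternatives). It was 20.3 to 22.2 times below *Tcf21* in counts in Control. *Foxd2os* starts 384 bp from *Foxd2* on the opposite strand, and the *Foxd2* window printed above lies between the starts. It had 1232 and 1317 counts in Control and 838 and 586 in *Eya1*cKO (log2 fold change 0.01, SE 0.19, adjusted p = 0.98 in edgeR), so the ratio of *Foxd2* to *Foxd2os* counts was 1.63 and 1.60 in Control and 1.02 and 1.54 in *Eya1*cKO. *C130021I20Rik*, which starts 682 bp from *Lmx1b* on the opposite strand, had a log2 fold change of 0.07 (SE 0.29, adjusted p = 0.91 in edgeR).

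*Foxf1* and *Foxl1*, the forkhead genes next to *Foxc2* on chromosome 8, did not pass the edgeR test. *Foxf1* had 23 and 71 counts in Control and 209 and 112 in *Eya1*cKO (log2 fold change 2.62, SE 0.69, adjusted p = 0.061 in edgeR). *Foxf1* passed with at least 10 counts asked of every library (2.60, adjusted p = 0.028 in edgeR) and with DESeq2 (2.62, adjusted p = 0.012). It also passed without *Eya1*cKO 1 (2.28, adjusted p = 0.0053) and without *Eya1*cKO 2 (2.81, adjusted p = 3.3e-04), with adjusted p from 3.3e-04 to 0.70 over all alternatives. *Foxl1* was at 16.3 and 18.9 CPM in Control and at 19.0 and 42.1 CPM in *Eya1*cKO 1 and 2, so *Eya1*cKO 2 carried its difference (log2 fold change 0.73, SE 0.39, adjusted p = 0.26 in edgeR). *Foxd1*, which encodes a relative of the *Foxd2* protein and marks stromal progenitors, rose from 180 to 257 CPM (log2 fold change 0.51, SE 0.11, adjusted p = 0.037 in edgeR). That call was lost without Control 1 (0.52, adjusted p = 0.53) and without Control 2 (0.45, adjusted p = 0.62). *Foxq1*, near *Foxc1*, had 123, 37, 2 and 88 counts and a log2 fold change of 0.02 (adjusted p = 0.99), but 66.1% of its exons overlap an antisense gene. Of 44 forkhead genes, 26 were tested, 2 were higher and 1 was lower, with a median log2 fold change of 0.04. The 3 were *Foxd1*, *Foxp2* (1.27, adjusted p = 0.0086) and *Foxp4* (-0.81, adjusted p = 0.0026), the last 2 named after their values were seen. Both were lost without Control 1 (adjusted p = 0.33 for *Foxp2* and 0.19 for *Foxp4*) and without Control 2 (0.40 and 0.21).

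The partners of *Tcf21* were then examined. Among 9 listed bHLH partners and inhibitors, 8 were tested and 2 were called, both lower, and their median log2 fold change was -0.22 beside 0.02 for all genes. *Tcf3*, which encodes the E proteins E12 and E47, fell from 577 to 392 CPM (log2 fold change -0.56, SE 0.07, adjusted p = 0.0061 in edgeR). *Id1*, whose product binds E proteins and keeps them from DNA, fell from 159 to 106 CPM (-0.59, SE 0.12, adjusted p = 0.031). The E protein genes *Tcf12* (-0.14, adjusted p = 0.37) and *Tcf4* (-0.06, adjusted p = 0.71) did not pass the test. Of the 3 E protein genes listed, then, 1 was lower where *Tcf21* was higher. Without Control 1 or without Control 2 both calls were lost, with an adjusted p of 0.26 and 0.24 for *Tcf3* and of 0.48 and 0.60 for *Id1*. *Tcf12* passed without *Eya1*cKO 1 (-0.29, adjusted p = 0.0012).

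For *Lmx1b*, 6 of 8 listed LIM partners and relatives were tested, 2 were higher and 1 lower, with a median log2 fold change of 0.20. *Ldb1*, the cofactor gene of LIM-homeodomain proteins, was at 220 and 239 CPM in the group means (log2 fold change 0.11, SE 0.11, adjusted p = 0.56 in edgeR). It passed without *Eya1*cKO 1 (0.24, adjusted p = 0.021) and turned to -0.04 without *Eya1*cKO 2 (adjusted p = 0.69). *Lhx1*, a LIM-homeodomain gene of the early nephron, fell from 140 to 41.4 CPM (-1.76, SE 0.13, adjusted p = 0.0010). Its call was lost without Control 1 (-1.79, adjusted p = 0.10) and without Control 2 (-1.76, adjusted p = 0.12). *Lmx1a*, the paralogue of *Lmx1b*, had 4, 9, 0 and 0 counts and was not tested.

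**Figure D4:**
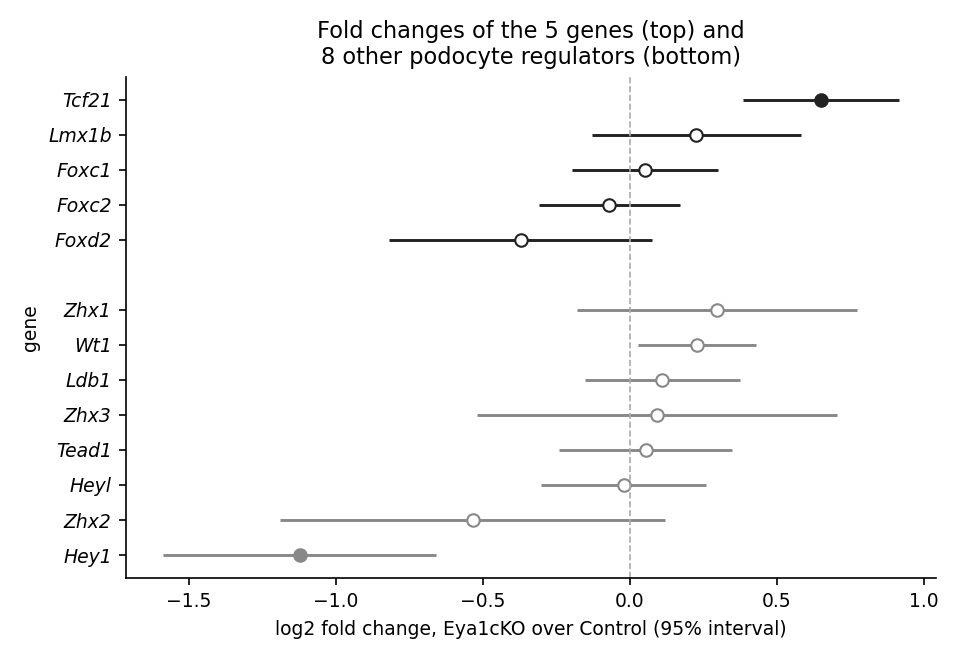
Log2 fold change of Eya1cKO over Control (horizontal axis) with its 95% interval, not adjusted for many genes, for the 5 genes (black, top) and for 8 of the 9 other podocyte regulators listed (grey, bottom); filled circles passed an adjusted p of 0.05 in edgeR. Tcf21 is at 0.65 and Hey1 at -1.12, and the intervals of the other 4 members include 0.

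Other regulators known in podocytes were read the same way. All 9 listed were tested, 1 was higher and 1 lower, and the median log2 fold change was 0.09. *Hey1*, a target of Notch signalling, fell from 61.7 to 28.3 CPM (log2 fold change -1.12, SE 0.20, adjusted p = 0.017 in edgeR), and its relative *Heyl* was at -0.02 (adjusted p = 0.93). *Wt1*, which is expressed from the progenitor to the podocyte, had 13060 and 14418 counts in Control and 9387 and 8358 in *Eya1*cKO, which is 374 and 385 CPM against 415 and 476 CPM. Both *Eya1*cKO libraries were higher, and the log2 fold change of 0.23 (SE 0.08, adjusted p = 0.13) did not pass the test, but did without *Eya1*cKO 1 (0.32, adjusted p = 1.9e-04, against 0.71 at the highest of all alternatives). *Hey1* was at -1.26 without Control 1 (adjusted p = 0.33) and -1.01 without Control 2 (adjusted p = 0.51).

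The structural genes of the podocyte had a larger median change than the 5 factors, a difference that was not tested. All 20 listed were tested, 14 rose and 0 fell in edgeR, and in 19 neither *Eya1*cKO library overlapped the Control range, being higher. At an unadjusted p under 0.05 in edgeR 17 were higher and 0 lower, and with DESeq2 15 were called higher and 0 lower. The list's median change was 1.62 on the log2 scale, beside 0.05 for the 5 factors. The summed level of the 20 genes was 1404 to 1451 CPM in Control and 3779 to 3871 CPM in *Eya1*cKO. *Podxl* had the highest level among them, with group means of 288 CPM in Control and 1424 CPM in *Eya1*cKO. The study itself named several of the 20 from these samples, so the list is not independent evidence of its direction. *Clic5*, which encodes a chloride intracellular channel protein of the foot processes, had a log2 fold change of 2.33 (adjusted p = 0.0014 in edgeR), and *Rhpn1* one of 1.46 (adjusted p = 0.023).

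The collagen IV chains of the mature glomerular basement membrane were low and uneven. *Col4a3* had 117, 46, 255 and 206 counts in Control 1 and 2 and *Eya1*cKO 1 and 2 (2.35, SE 0.57, adjusted p = 0.049 in edgeR). *Col4a4* had 217, 211, 700 and 117 counts (1.77, SE 0.66, adjusted p = 0.14), so *Eya1*cKO 1 carried most of its level, and without *Eya1*cKO 1 the log2 fold change was 0.16 (adjusted p = 0.78 in edgeR), while without *Eya1*cKO 2 it was 2.37 and passed (adjusted p = 1.5e-06). *Myo1e*, a myosin of the foot process, had the smallest change of the list (-0.09, adjusted p = 0.82), and it turned to 0.09 without Control 2. Without Control 1 the list had 2 calls and without Control 2 it had 3, and the calls of *Nphs1*, *Clic5*, *Rhpn1* and *Col4a3* were among those lost, with adjusted p from 0.055 to 0.70.

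**Figure D5:**
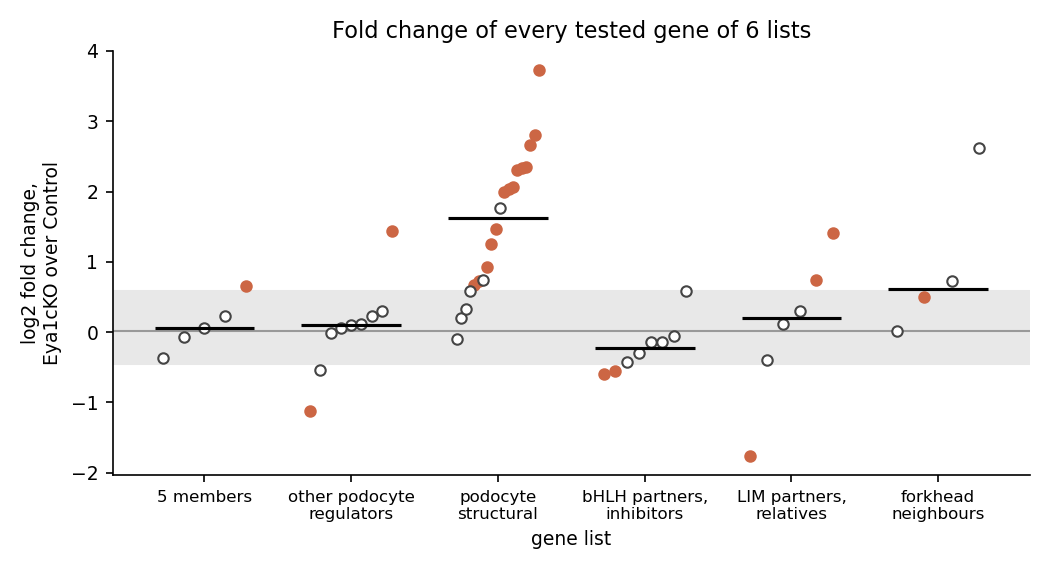
Log2 fold change of Eya1cKO over Control (vertical axis) for every tested gene of 6 lists, sorted within each list, with a black bar at the list's median; orange circles passed an adjusted p of 0.05 in edgeR, the grey band is the interquartile range of all 19041 genes tested and the grey line their median. The 5 members have a median of 0.05 and the 20 podocyte structural genes one of 1.62.

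Markers of other cells that the sort could hold moved with genotype. Nephron progenitor markers other than the deleted *Eya1* were lower in 7 of 7, with a summed level of 837 to 851 CPM in Control and 97.1 to 125 CPM in *Eya1*cKO. Renal stroma markers, from cells that are also known to express *Tcf21*, were higher in 6 of 10 and lower in 1, and their sum was 2937 to 2957 CPM in Control and 5917 to 6117 CPM in *Eya1*cKO. Most of that difference came from the collagen genes *Col1a1* and *Col3a1*, and the other 8 markers summed to 912 to 919 CPM in Control and 1210 to 1247 CPM in *Eya1*cKO, with *Tbx18* lower. Endothelial markers, from cells that are also known to express *Foxc1* and *Foxc2*, were higher in 8 of 8, with 622 to 636 CPM in Control and 1117 to 1137 CPM in *Eya1*cKO. Adrenal cortex markers were higher in 5 of 5 tested, with 10.8 to 15.8 CPM in Control and 575 to 585 CPM in *Eya1*cKO, although *Cyp17a1* had at most 3 counts in any library. Sympathoadrenal and neuronal markers were higher in 5 of 7 and lower in 1, from 32.6 to 35.9 CPM up to 327 to 367 CPM. Ureteric bud markers were lower in 2 of 8, from 274 to 290 CPM down to 167 to 174 CPM. Of Schwann and neural crest markers 1 of 4 tested was higher (26.4 to 28.006 CPM in Control, 28.7 to 32.2 CPM in *Eya1*cKO), and of blood cell markers 0 of 3 tested were called in edgeR (46.3 to 48.4 and 41.4 to 53.0 CPM), 1 at an unadjusted p under 0.05 and 0 with DESeq2, with *Hba-a1* at 0 counts throughout. The part of these cells in the level of *Tcf21* or of any other member was not tested.

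Last, genes were sought whose centred log2 CPM over the 4 libraries lay nearest to that of each member, by root mean square (RMS) difference, among 10406 other genes with a mean of at least 10 CPM. For *Tcf21* these were *Maged2* (RMS 0.013) and *Cgnl1* (0.013), for *Foxc1* *Cox4i1* (0.011) and *Sema6a* (0.018), and for *Foxc2* *Lsp1* (0.0047) and *Safb2* (0.0084). For *Foxd2* they were *Tmco3* and *Midn* (0.0087 each), and for *Lmx1b* *Ube2h* (0.013) and *Gltp* (0.014). Between members the nearest pair was *Foxc1* and *Foxc2*, with an RMS difference of 0.067, and *Tcf21* and *Foxd2* were 0.52 apart. Even so, *Foxc2* ranked only 323 in nearness to *Foxc1*, and *Foxc1* 368 in nearness to *Foxc2*, among the 10406 genes. With only 4 libraries many genes lie close to any pattern, from 47 within an RMS of 0.05 for *Tcf21* to 175 for *Foxc2*.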

How the data were processed

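RNA was measured in 4 libraries of 5000 sorted tdTomato+ mouse kidney cells each, 2 per genotype, grouped by the labels. The authors deposited whole-number counts per Ensembl gene identifier, made per the study's methods by aligning reads to mm10 with HISAT2 and counting them with HTSeq, and compared the genotypes in DESeq2. The strand setting is not given in the sources used here. Summary lines of the counter were left out (no feature 12.9 to 22.7%, not aligned 6.32 to 12.9%, ambiguous 2.50 to 3.13%, not unique 7.95 to 9.06% of reads).

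Genes kept by filterByExpr (minimum count 10) were fitted on genotype in edgeR 4.0.16 (R 4.3.3) with TMM factors and the quasi-likelihood test. The test was first run on simulated data. These held planted changes larger than that of any member and the same spread in both groups. They therefore do not show how the test does for changes of the members' size. Adjusted p is Benjamini-Hochberg over all 19041 genes tested, called under 0.05. SE was obtained by dividing the size of a log2 fold change by the root of its F value, and 95% intervals use the t distribution. CPM are over TMM-scaled totals. Exons, lengths and positions are of GENCODE M21 on the mm10 build, a later release than the authors' annotation, and promoters of RefSeq. The replicates of a group differed beyond counting noise (chi-square per degree of freedom 9.38 in Control and 49.2 in *Eya1*cKO), so none was counted as a duplicate.

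The members and all gene lists were chosen with earlier results of these data known. Named were all members, the largest and smallest change of each list of regulators, partners, neighbours and structural genes, 12 genes set by name, and genes beside a member, of which some are not reported here. For the marker lists counts and sums are given in place of single genes. Alternatives were other scaling (DESeq2 size factors, library totals), other low-count filters, DESeq2 1.42.0, robust and legacy fits, a replicate block, thinned Control counts and leaving out each library. They were planned for the members and the counts of calls, and added after seeing the data for the other named genes.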

Additional observations from a re-analysis of the deposited data

How the results depend on the processing

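Of the member results, *Tcf21* kept its direction under all alternatives, at a log2 fold change of 0.63 to 0.69 with all libraries and 0.58 to 0.70 with 1 left out, and *Foxc1* (0.04 to 0.09), *Foxc2* (-0.08 to -0.03), *Foxd2* (-0.39 to -0.33) and *Lmx1b* (0.21 to 0.26) kept theirs under every alternative that used all libraries. The replicate block, which uses numbers that the labels do not tie to a shared source (r = 0.0062 between the deviations of same-numbered libraries over 19041 genes), left the log2 fold change of *Tcf21* at 0.65 with an adjusted p of 0.070 in edgeR, so 0 members were called with the block (1 at an unadjusted p under 0.05; the DESeq2 test, run without the block, called 1), with 1 of the other podocyte regulators and 621 genes in all. The number of all genes called was 1055 with no low-count filter, 3113 with the DESeq2 Wald test and 1096 with the legacy fit, and with 1 library left out it ran from 23 to 7925. Leaving out a library gave 0 to 3 members called, 2 to 18 podocyte structural genes and 0 to 6 other podocyte regulators. A fit without 1 library takes its spread from the complete pair of the other genotype alone, and the lone library is assumed to vary like it. Turned in sign were *Foxc1* (-0.087 without *Eya1*cKO 2) and *Foxc2* (0.042 without *Eya1*cKO 1, with -0.20 without *Eya1*cKO 2). Of the other named genes, *Heyl* turned to 0.018 with library totals and 0.025 with thinned Control counts and ran from -0.066 to 0.0029 with 1 library left out, *Foxq1* turned to -0.076 with thinned counts and ran from -4.60 to 1.17, and *Foxd2os* turned to -0.0083 with no filter, -0.0040 with at least 10 counts in every library and -0.020 with thinned counts and ran from -0.088 to 0.058. *Myo1e* ran from -0.28 to 0.091, *Tcf4* from -0.15 to 0.0098, *C130021I20Rik* from -0.11 to 0.17 and *Ldb1* from -0.039 to 0.24 with 1 library left out. The calls of *Id1*, *Col4a3*, *Foxd1*, *Rhpn1*, *Hey1* and *Foxp2* were each lost under at least 1 other alternative, and *Foxf1* passed with the stricter filter and with DESeq2. The cause of these changes was not tested.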
